A study of Mus musculus with 20 samples.

Results

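Hlf, Meis1, Mecom, Prdm16, Nkx2-3 and Msi2 are genes whose products regulate transcription or RNA in hematopoietic stem cells. They were chosen by name, with earlier results of these data known, as 6 of the 24315 genes in the deposited tables. RNA was measured in LSK cells (Lin-Sca1+c-Kit+, the bone marrow fraction that holds the stem cells) and in MEP (megakaryocyte-erythroid progenitors, Lin-Sca1-Kit+CD34- with little or no FcγRII/III), both sorted from the same C57BL/6 mice. Each cell type had 3 libraries of wild type (WT) mice, 3 of Dnmt3a-/-, 2 of Bcor-/- and 2 of Bcor-/-Dnmt3a-/- mice, and 1 Bcor-/- library of each cell type carries the names of 2 mice. Bcor, a polycomb co-repressor, had exons 8 to 10 deleted, and it and the DNA methyltransferase gene Dnmt3a were removed by Mx1-Cre, an interferon-inducible Cre that acts in many blood and other cells after pIpC injection. The WT mice were those with untargeted genes. The library labels name Cre for each mutant genotype but not for WT, so an effect of Cre itself cannot be told apart from that of the deletions. The study describes the Dnmt3a deletion of the Dnmt3a-/- mice as partial and the Bcor-/-Dnmt3a-/- mice as leukemic, while the labels give neither age nor disease stage.

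A hematopoietic stem cell renews itself under a small set of transcription factors that are shut down as its daughters commit to a lineage. Hlf is a bZIP factor of the PAR family that marks stem cells and keeps them quiescent, and Meis1 is a TALE homeodomain partner of Hox and Pbx proteins. Mecom and Prdm16 are zinc finger relatives of the PRDM family that sustain stem cells, Nkx2-3 is a homeodomain factor of the NK2 family, and Msi2 is an RNA-binding protein of the Musashi family that controls translation in stem and leukemic cells.

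On the log2 scale of the fits, Hlf and Meis1 had the largest fold changes of the 6 in Bcor-/-Dnmt3a-/- LSK, and Msi2 the smallest. That scale understates changes of low values, and the order of Mecom depends on it. Mecom kept 2.28% and 6.48% of the WT mean in the Bcor-/-Dnmt3a-/- LSK libraries. Hlf kept 1.48% and 7.56% there, and Meis1 1.57% and 12.7%. Nkx2-3 and Prdm16 had their highest MEP values in Bcor-/-, and Nkx2-3 was taken from this pair. For these reasons the start regions of 4 genes are shown, those of Hlf, Meis1, Nkx2-3 and Msi2. Each is the RefSeq window (GRCm38.p6) from 250 bases before to 50 after the start of transcription, 5′ to 3′ on the strand of the gene, and capitals mark CG dinucleotides, the sites that Dnmt3a can methylate. Hlf lies on the minus strand at chr11:90390868-90391167, Meis1 on the minus strand at chr11:19018920-19019219, Nkx2-3 on the plus strand at chr19:43612075-43612374 and Msi2, whose farthest upstream of 3 listed windows is given, on the minus strand at chr11:88718228-88718527.
Hlf: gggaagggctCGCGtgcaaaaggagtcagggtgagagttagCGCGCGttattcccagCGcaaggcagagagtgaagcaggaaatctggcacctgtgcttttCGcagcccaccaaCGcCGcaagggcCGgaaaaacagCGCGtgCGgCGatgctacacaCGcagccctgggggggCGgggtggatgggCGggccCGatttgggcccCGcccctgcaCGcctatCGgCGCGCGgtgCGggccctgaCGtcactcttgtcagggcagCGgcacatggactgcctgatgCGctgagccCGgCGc
Meis1: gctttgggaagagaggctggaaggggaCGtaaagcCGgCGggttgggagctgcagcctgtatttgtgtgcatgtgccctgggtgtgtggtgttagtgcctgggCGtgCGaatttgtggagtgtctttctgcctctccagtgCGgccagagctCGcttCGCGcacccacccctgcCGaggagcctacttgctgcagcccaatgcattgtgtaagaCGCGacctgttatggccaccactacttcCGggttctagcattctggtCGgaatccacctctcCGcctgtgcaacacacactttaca
Nkx2-3: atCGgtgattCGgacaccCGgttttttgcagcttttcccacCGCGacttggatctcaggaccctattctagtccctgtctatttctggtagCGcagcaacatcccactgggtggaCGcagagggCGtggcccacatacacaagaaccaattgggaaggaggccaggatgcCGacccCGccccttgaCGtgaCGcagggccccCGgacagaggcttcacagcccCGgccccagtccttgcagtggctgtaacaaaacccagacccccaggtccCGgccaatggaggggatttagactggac
Msi2: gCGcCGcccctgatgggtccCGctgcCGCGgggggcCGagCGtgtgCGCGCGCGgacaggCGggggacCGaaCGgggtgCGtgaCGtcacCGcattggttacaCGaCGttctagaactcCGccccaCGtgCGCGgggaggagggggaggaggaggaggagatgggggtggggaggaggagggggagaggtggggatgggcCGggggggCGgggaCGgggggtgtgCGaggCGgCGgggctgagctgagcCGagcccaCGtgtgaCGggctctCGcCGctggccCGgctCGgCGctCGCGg

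The Msi2 window held 39 CG dinucleotides, a number that 4.45% of the 32851 RefSeq windows reach, and the Hlf window held 30, which 11.7% reach. Meis1 and Nkx2-3 held 15 each, against a median of 7.0 over all windows. CCAAT, searched on both strands like the other motifs, occurred 3 times in the Nkx2-3 window and once in those of Meis1 and Msi2, and is found in 37.4% of all windows. AGATAA, a form of the site bound by GATA factors, was in 0 of the 9 windows listed for the 6 genes, and in 11.2% of all windows. Other forms of that site were not searched, so this count does not show that the windows lack GATA sites. GGAAGT, a form of the ETS core, was in the Meis1 window and in 23.8% of all windows. Methylation and binding were not measured here. Of the genes not shown, Mecom spans chr3:29951296-30548008 and Prdm16 chr4:154316125-154636873 on the minus strand of GRCm38. In the GENCODE annotation of GRCm38 an antisense gene overlaps exons of Mecom, an antisense and an unclassified gene overlap Meis1, and B230104I21Rik overlaps Prdm16 on the opposite strand. Reads of the partners on the opposite strand could not be told apart from those of the 3 genes if the counting ignored strand, which is not given in the sources used here, and the unclassified gene lies on the strand of Meis1, where strand does not separate them.

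The values are FPKM (fragments mapped to a gene, divided by its transcript length and by the mapped fragments of the library), which correct for length and so allow levels of different genes to be compared. Bcor RNA was not lost in the mutants, at 22.4 to 23.2 FPKM for Bcor-/- LSK, 24.0 to 37.4 for the double knockout and 29.5 to 32.4 for WT. Dnmt3a RNA was 11.3 to 16.9 FPKM for Dnmt3a-/- LSK, 10.4 to 10.9 for the double knockout and 16.1 to 19.8 for WT. In MEP it was 2.56 to 5.40 FPKM for Dnmt3a-/- and 5.49 to 6.64 for WT, and the double knockout libraries lay on both sides of WT, at 6.85 and 3.44 FPKM. Bcor RNA in MEP was 19.5 to 22.4 FPKM for Bcor-/-, 19.6 to 26.7 for the double knockout and 21.3 to 26.9 for WT. A value for the whole gene does not resolve the deleted exons. The 2 Bcor-/-Dnmt3a-/- libraries were less alike than any other replicates, with r = 0.849 across genes in LSK and 0.815 in MEP, whereas the other replicate pairs reached at least 0.973 and 0.971. Ly6a and Kit, the genes of the surface proteins Sca1 and c-Kit that define LSK, were both above 1 FPKM in every LSK library, but Kit fell in the double knockout, with 47.7 and 19.4 FPKM against 148 to 174 in WT (log2 fold change -2.37, SE 0.29, adjusted p = 0.000493). Cd34 was 5.87 and 37.3 FPKM in Bcor-/-Dnmt3a-/- LSK against 548 to 650 in WT.

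In WT LSK, Hlf, Msi2 and Meis1 were the abundant genes of the group, with means of 68.4 ± 11.7, 61.6 ± 7.11 and 59.3 ± 10.6 FPKM (SD, n = 3). Nkx2-3 followed with 14.8 ± 4.25 FPKM, Mecom with 12.2 ± 2.42 and Prdm16 with 3.74 ± 0.417. In WT MEP the same genes were low except for Msi2, at 17.8 FPKM, and Meis1, at 8.55. Hlf had a mean of 2.02 FPKM in WT MEP, and Mecom, Prdm16 and Nkx2-3 were below 0.5. Dnmt3a-/- libraries overlapped WT for each of the 6 genes in LSK.

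**Figure D1:**
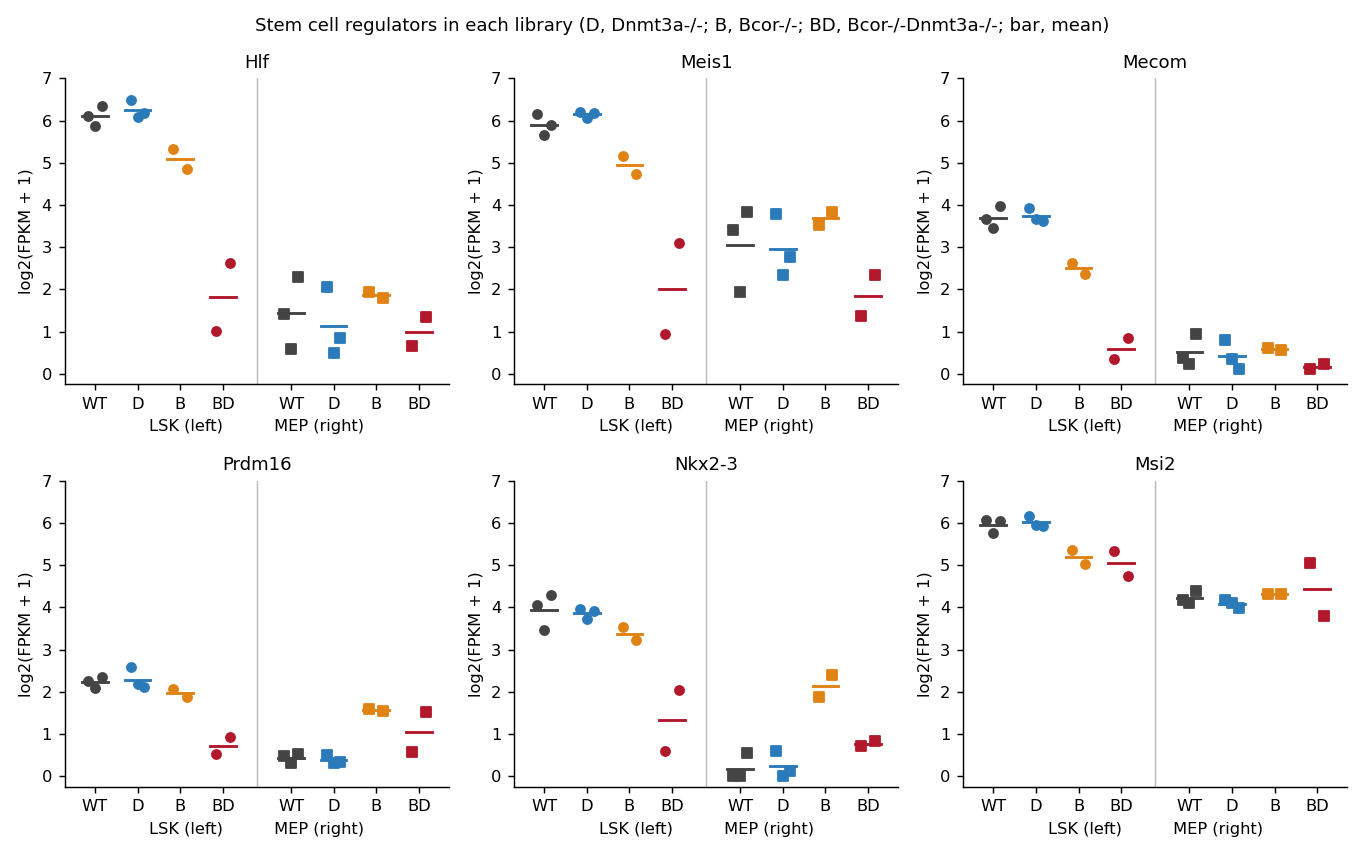
Level of each gene in every library as log2(FPKM + 1), with LSK as circles on the left and MEP as squares on the right, and bars at the means. In LSK the Bcor-/-Dnmt3a-/- points of Hlf, Meis1, Mecom, Prdm16 and Nkx2-3 lie far below WT and close to MEP, whereas Msi2 stands at 26.0 to 39.3 FPKM.

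The question of the first comparison was what the combined loss of Bcor and Dnmt3a did to these regulators in LSK. Hlf had 67.6, 57.1 and 80.5 FPKM in WT LSK, while the Bcor-/- libraries gave 39.1 and 28.0 and the Bcor-/-Dnmt3a-/- libraries 1.01 and 5.18. Both Bcor-/-Dnmt3a-/- libraries were therefore below every other LSK library, at 1.48% and 7.56% of the WT mean. On the log2(FPKM + 1) scale, which understates changes of low values, Hlf was lower by a log2 fold change of -4.28 (SE 0.40, limma with a mean-variance trend, Benjamini-Hochberg adjusted p = 0.000123). Only 4 of the 11952 tested genes had a lower fold change. Over the libraries left out in turn, the value for Hlf ranged from -5.093 to -3.477.

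Meis1 was low in the same libraries. It had 70.5, 49.4 and 58.1 FPKM in WT LSK, 34.7 and 25.6 after Bcor loss and 0.930 and 7.53 after loss of both genes. These 3 groups did not overlap, and the log2 fold change of the double knockout against WT was -3.88 (SE 0.49, adjusted p = 0.00055). Replicate 1 kept 1.57% of the WT mean and replicate 2 kept 12.7%, so the fitted change rests on libraries that differ from each other.

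Mecom, for which RefSeq lists 2 starts, had 11.8, 9.97 and 14.8 FPKM in WT LSK, with 5.17 and 4.19 for Bcor-/- and 0.278 and 0.789 for Bcor-/-Dnmt3a-/-. The groups again did not overlap. Its log2 fold change in the double knockout was -3.11 (SE 0.21, adjusted p = 4.22e-05). Under the alternative settings listed below, leaving out a library aside, it ranged from -4.386 to -3.006, and that of Meis1 from -4.39 to -3.876. Its relative Prdm16 was a low gene already in WT, at 3.81, 3.29 and 4.12 FPKM, against 3.17 and 2.65 for Bcor-/- and 0.429 and 0.894 for Bcor-/-Dnmt3a-/-. Prdm16 fell by 1.52 on the log2 scale (SE 0.23, adjusted p = 0.00125), a call that was lost when each genotype had its own variance weight (adjusted p = 0.0572). Under the same alternative settings its log2 fold change ranged from -2.399 to -1.387.

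Nkx2-3 had 15.7, 10.1 and 18.5 FPKM in WT LSK, with 10.6 and 8.30 for Bcor-/- and 0.523 and 3.12 for Bcor-/-Dnmt3a-/-. The double knockout was below all other LSK libraries, with a log2 fold change of -2.62 (SE 0.38, adjusted p = 0.00116). This value ranged from -3.335 to -1.9 over the libraries left out.

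Msi2 had the smallest log2 fold change of the 6. It had 65.9, 53.4 and 65.5 FPKM in WT LSK, with 39.9 and 31.9 for Bcor-/- and 39.3 and 26.0 for Bcor-/-Dnmt3a-/-, so that the 2 mutant genotypes overlapped each other below WT. Msi2 fell by 0.92 on the log2 scale in the double knockout (SE 0.19, adjusted p = 0.00627), which was a 1.89-fold change, and this call too was lost with 1 variance weight per genotype (adjusted p = 0.0996).

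In all, 6 of 6 genes passed an adjusted p under 0.05 and a fold change above 1.5 in Bcor-/-Dnmt3a-/- against WT LSK, and each was lower. Of all tested genes 23.7% passed, and 11.4% passed with a lower value. The 6 genes were chosen with earlier results of these data known, so their excess over these shares is not independent support. Both double knockout libraries were below every WT library for 6 of 6 genes and for 24.1% of all tested genes. The count was 6 without any 1 of the WT, Dnmt3a-/- or Bcor-/- libraries. Without double knockout replicate 1 or 2 it was also 6, but there and wherever a library of a genotype with 2 is left out, the lone library is assumed to vary like the other genotypes. The number called among all genes rose in these fits from 2836 to 4501 and 3539, so they say nothing of stability. It was 4 with 1 variance weight per genotype. An exact permutation test of a single gene with 2 libraries against 3 cannot give a p below 0.1, and each of the 6 genes reached that value.

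Against Dnmt3a-/- LSK the double knockout gave a like picture, again with 6 of 6 genes called, each lower, beside 25.5% of all genes called and 12.0% called lower. The log2 fold changes were -4.44 for Hlf, -4.13 for Meis1, -3.14 for Mecom, -2.54 for Nkx2-3, -1.57 for Prdm16 and -0.97 for Msi2. With 1 variance weight per genotype 5 of 6 were called. These values share the double knockout libraries with the comparison against WT and are not independent of it. Against Bcor-/- LSK, 5 of 6 genes were called lower, beside 25.2% of all genes called and 12.3% called lower. The log2 fold change was -3.28 for Hlf, -2.92 for Meis1, -2.06 for Nkx2-3, -1.90 for Mecom and -1.25 for Prdm16. Msi2 was not called, with a log2 fold change of -0.15 (SE 0.21, adjusted p = 0.603) that became 0.14 when double knockout replicate 2 was left out. When only the 2 Bcor-/- and 2 double knockout libraries were fitted, 0 of the 6 genes were called, as against 1 of all 11952 tested genes, and with 1 variance weight per genotype 3 of the 6 were. Without Bcor-/- replicate 1 the count was 4, since Nkx2-3 then had an adjusted p of 0.0522.

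**Figure D2:**
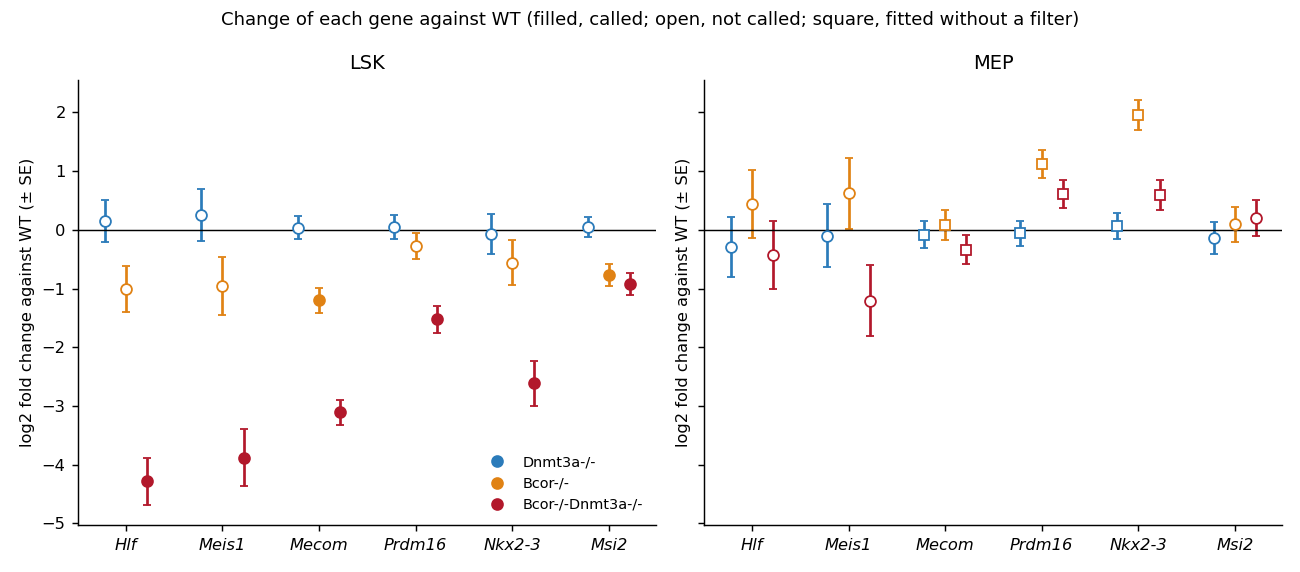
Log2 fold change of each gene against WT in LSK (left) and MEP (right) for the 3 mutant genotypes, with error bars of 1 SE of the limma fit. Filled symbols passed both thresholds, open ones did not, and squares were fitted without the filter on low values because their mean was under 1 FPKM in MEP.

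In LSK that lacked Bcor alone, each of the 6 genes had a negative log2 fold change, and 2 of the 6 were called. Both Bcor-/- libraries were below every WT library for 5 of 6 genes, all but Nkx2-3, beside 27.0% of all tested genes. Mecom fell by 1.20 on the log2 scale (SE 0.21, adjusted p = 0.0205) and Msi2 fell by 0.77 (SE 0.19, adjusted p = 0.0451). These were the 2 of 6 genes called, both lower, and 5.77% of all tested genes were called, 1.87% lower. Hlf had a log2 fold change of -1.01 (SE 0.40, adjusted p = 0.153) with Bcor-/- replicates at 57.2% and 41.0% of the WT mean. Meis1 had -0.96 (SE 0.49, adjusted p = 0.265), at 58.5% and 43.1% of the WT mean. Nkx2-3 had -0.56 (adjusted p = 0.407) and Prdm16 -0.28 (adjusted p = 0.501).

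These calls were not stable. Mecom lost its call without WT replicate 1 (adjusted p = 0.082), WT replicate 3 (0.0693) or Bcor-/- replicate 2 (0.238), with a pseudocount of 0.1 FPKM and with the replicate block. Msi2 lost its call with no filter, without the trend and when any 1 of the WT, Dnmt3a-/- or Bcor-/- libraries was left out (adjusted p from 0.0588 to 0.37). When either double knockout library was left out, 4 of 6 genes were called, Hlf and Meis1 among them (adjusted p = 0.0079 and 0.006 without replicate 1), and 4 were called when only the Bcor-/- and WT libraries were fitted. The number called among all 11952 tested genes moved as well, from 690 to 1692 and 1691 without either double knockout library and to 1393 with only these 2 genotypes. It was 3 without WT replicate 1, 4 without Bcor-/- replicate 2, 36 without WT replicate 3 and 351 to 473 without any other WT, Dnmt3a-/- or Bcor-/- library, so calls were lost among all genes as well. The spread of the double knockout libraries thus enters the test of the other genotypes.

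Dnmt3a loss alone gave 0 of 6 calls in LSK, beside 0% of all tested genes. In limma's test 0 of the 6 genes had an unadjusted p under 0.05, and 0 were called in any alternative that was run. Hlf had 89.4, 66.8 and 72.0 FPKM in Dnmt3a-/- LSK and Meis1 72.8, 66.1 and 71.3, values that overlapped WT. Mecom had 14.2, 11.8 and 11.3 FPKM, Prdm16 5.03, 3.51 and 3.30, Nkx2-3 14.6, 12.2 and 14.0, and Msi2 70.7, 60.8 and 60.2. The log2 fold changes lay between -0.08 for Nkx2-3 and 0.25 for Meis1.

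Markers of several other cells moved with genotype in the same LSK libraries. The calls below stand beside 23.7% of all tested genes called in Bcor-/-Dnmt3a-/- against WT and 5.77% in Bcor-/- against WT. The summed level of 17 measured erythroid genes, such as globins and heme enzymes, was 7689 to 25100 FPKM in Bcor-/-Dnmt3a-/- LSK and 483 to 644 in WT, and 15 of the 16 tested were called higher. The 7 B-lymphoid genes summed to 1122 to 3419 FPKM in Bcor-/-Dnmt3a-/- LSK against 42.4 to 99.99 in WT, with 5 of 7 called higher. The 6 macrophage genes summed to 106 to 1378 FPKM against 53.4 to 308, with 1 of 6 called higher. T and NK genes gave 90.9 to 278 FPKM against 211 to 231 for 5 genes, of which 4 were called higher and 1 lower. The lower gene was Nkg7, a gene of cytotoxic granules and most of the sum, with a mean of 109.6 FPKM against 216.7 in WT. Megakaryocyte genes summed to 14.3 to 49.5 FPKM against 97.4 to 117 for 7 genes, of which 4 of 6 tested were called lower. The 7 stem cell surface genes, by contrast, summed to 69.8 to 130 FPKM against 836 to 1001 in WT, and 6 of 7 were called lower. In Bcor-/- LSK the 9 granulocyte-monocyte genes summed to 17690 to 25510 FPKM against 3296 to 12120 in WT, with 4 of 9 called higher. The erythroid genes summed to 955 and 1453 FPKM in Bcor-/- LSK, above WT in both libraries, with 7 of 16 called higher, and the stem cell surface genes to 392 to 587, with 3 of 7 called lower. Of the measured marker genes, Gp6 of the megakaryocyte list was at 0 throughout LSK. In bulk RNA a smaller share of stem cells and less RNA of these genes per cell cannot be told apart, and the part of other cells in the values above was not tested.

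**Figure D3:**
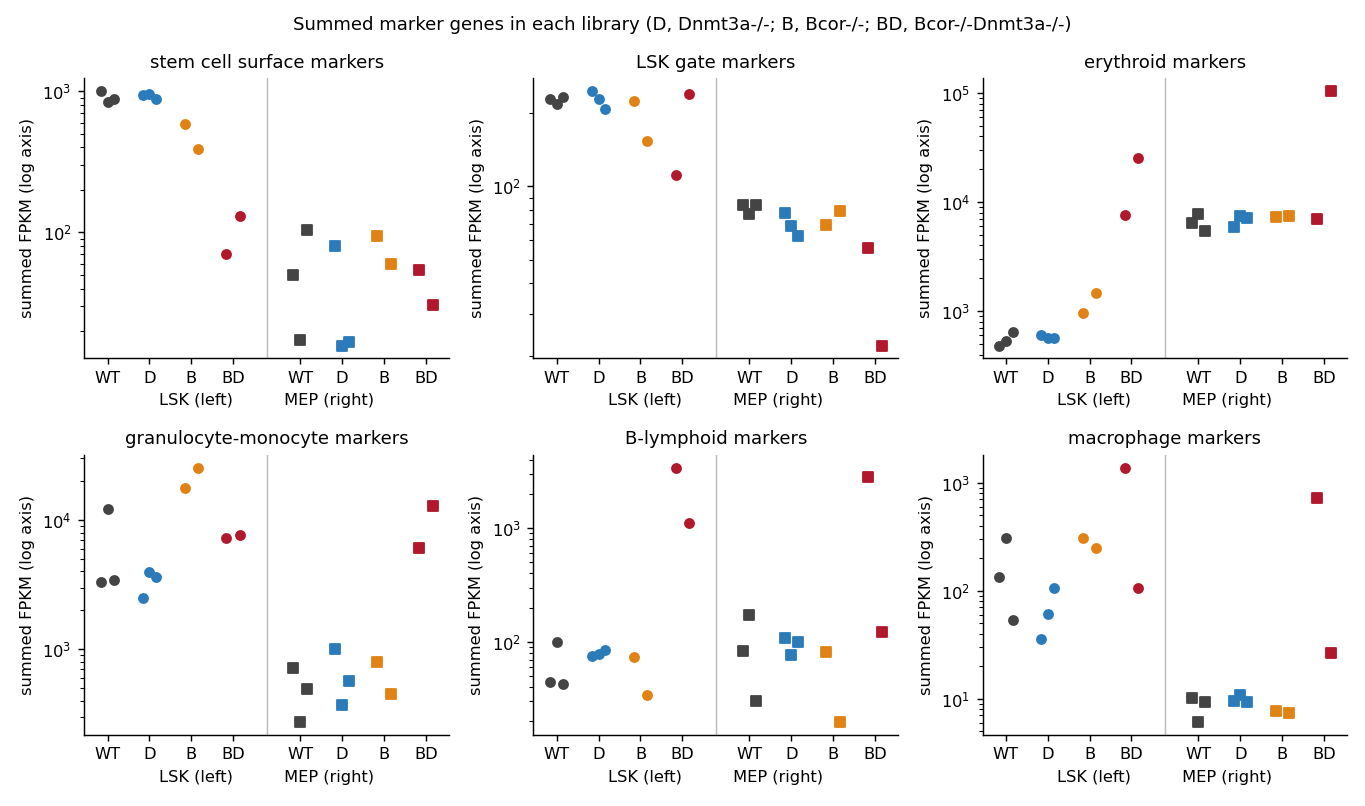
Summed FPKM of 6 marker lists in every library on log axes, LSK as circles on the left and MEP as squares on the right. In Bcor-/-Dnmt3a-/- LSK the stem cell surface sum lies at 69.8 to 130 FPKM, with 1 of its 2 libraries above every MEP library (15.7 to 104 FPKM), and the erythroid sum at 7689 to 25100.

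Partners and relatives of the 6 genes were described as lists, which were also chosen with earlier results of these data known. Of 11 tested TALE and Hox partners of Meis1, 6 were called lower and 1 higher in Bcor-/-Dnmt3a-/- against WT LSK, beside 23.7% of all tested genes called and 11.4% called lower. The median log2 fold change was -1.35 over these 11 and 0.02 over all genes. The homeobox gene Hoxa9 fell by 2.70 (SE 0.32, adjusted p = 0.000409). Hoxa10 fell by 2.12 and Hoxa5 fell by 1.85, while the TALE gene Meis3 was higher by 1.502 (adjusted p = 0.0474). The double knockout libraries of Meis3 differed from each other, at 2.22 and 12.1 FPKM against 1.11 to 1.55 in WT.

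Of 24 tested genes of the wider stem cell transcription factor circuit, 8 were called lower and 0 higher, beside the same 23.7% and 11.4%, and the median log2 fold change was -0.52. Gata2, a zinc finger factor of stem and progenitor cells, fell by 3.08 (SE 0.31, adjusted p = 0.000187), from 54.1 to 74.5 FPKM in WT LSK to 3.74 to 10.1. Mycn fell by 2.68, the chromatin protein gene Hmga2 fell by 2.42 and the Ikaros relative Ikzf2 fell by 2.15. Erg, an ETS factor, was not called, and its double knockout libraries lay on both sides of WT, at 9.56 and 169 FPKM against 78.2 to 88.2. Tal1, Bmi1, Fli1 and Runx1 were among the 16 genes not called.

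Relatives of Prdm16 and Msi2 by family gave calls in both directions, while those of Hlf gave 1 call, a higher one. The PRDM and RNA regulator lists, with 3 of 13 and 2 of 16 genes called, were at or below the 23.7% called among all genes. Of the 3 PAR bZIP and related genes tested, Tef was called higher (log2 fold change 0.65, adjusted p = 0.0179), and Dbp and Nfil3 were not called. Among 13 tested PRDM relatives and partners, Prdm1, known for plasma cell differentiation, was higher by 2.43 (adjusted p = 0.0316) and Prdm2 by 0.82. Their double knockout libraries differed from each other. Prdm1 had 2.55 and 25.2 FPKM there against 0.531 to 1.30 in WT, and Prdm2 18.2 and 36.9 against 13.2 to 15.6. Of 16 RNA regulators, Zfp36l1, a factor that promotes mRNA decay, was higher by 1.63 (adjusted p = 0.00105) and its relative Zfp36l2 fell by 0.72, and 14 were not called. The other genes of the NK2 family did not pass the filter on low values.

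In Bcor-/- LSK, 0 of 11 TALE and Hox partners, 0 of 13 PRDM genes and partners and 0 of 3 PAR bZIP genes were called, and the circuit and the RNA regulators gave 1 of 24 and 1 of 16, near the 5.77% of all genes called. The gene of the circuit was Gfi1, a transcriptional repressor needed for granulocyte development, which was higher by 1.97 (SE 0.16, adjusted p = 0.00448). The RNA regulator was Lin28a, which was higher by 1.84 (adjusted p = 0.0296). In Dnmt3a-/- LSK these lists gave 0 calls.

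**Figure D4:**
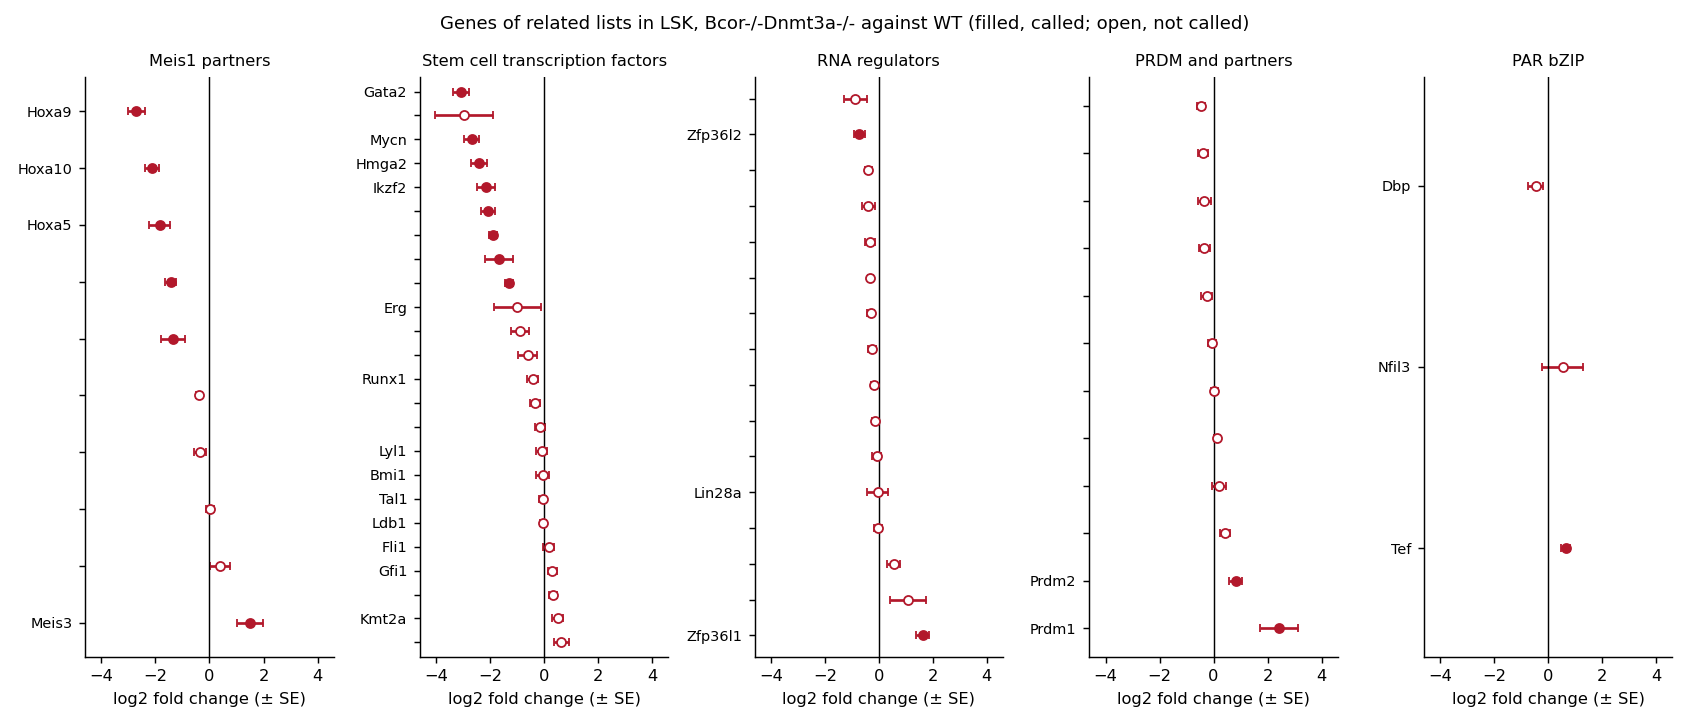
Log2 fold change in LSK of Bcor-/-Dnmt3a-/- against WT for the tested genes of the 5 related lists, with error bars of 1 SE and names for the genes described in the text (genes that are not reported here are left out). Filled points passed both thresholds, and most filled points on the left of 0 belong to the Meis1 partners and to the stem cell transcription factors (8 lower).

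Over the 10 LSK libraries the 5 transcription factors followed each other closely, with Pearson r of log2(FPKM + 1) between 0.953 for Mecom with Nkx2-3 and 0.992 for Hlf with Meis1. Msi2 gave r between 0.673 with Nkx2-3 and 0.844 with Mecom. The libraries share genotypes, so these coefficients mostly restate the differences between genotypes, and they are given as a description. Among the 11951 other tested genes, the most similar to Hlf were Spns2 (r = 0.998), Nynrin (0.997) and Galnt6 (0.997). Meis1 was most like Ngfrap1 (0.998), Dapp1 and Fkbp9, Mecom most like Crispld1 (0.996), Ppp2r3a and Bex1, and Prdm16 most like Nynrin (0.994), Gtf2i and Cdk18. Among the genes most like Nkx2-3 were Procr (0.997), which encodes a surface receptor of stem cells, and Ppif (0.992). Msi2 was most like Map9 (0.997), Ssbp2 (0.984) and Casc4 (0.979).

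In MEP the 6 genes were measured at lower levels, and 3 of them, Hlf, Meis1 and Msi2, passed the filter of a mean of 1 FPKM. Mecom, Prdm16 and Nkx2-3 had means of 0.380, 0.827 and 0.944 FPKM over the 10 libraries and were fitted without a filter. Nkx2-3 was listed at 0 in 3 MEP libraries, which can be a failed estimate.

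Prdm16 and Nkx2-3 had their highest values among MEP in the 2 Bcor-/- libraries. Nkx2-3 was listed at 0, 0 and 0.453 FPKM in WT MEP and 0.525, 0 and 0.0963 for Dnmt3a-/-, whereas Bcor-/- MEP had 2.67 and 4.29 FPKM and Bcor-/-Dnmt3a-/- MEP 0.644 and 0.771. Prdm16 had 0.399, 0.242 and 0.438 FPKM in WT MEP and 0.411, 0.237 and 0.269 for Dnmt3a-/-. The Bcor-/- libraries gave 2.02 and 1.91, and the double knockout 0.493 and 1.85. Both Bcor-/- libraries were above every WT library for these 2 of 6 genes, beside 12.0% of all genes without a filter, and so were both double knockout libraries, beside 23.2%.

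The differences did not pass the test against WT. Nkx2-3 had a log2 fold change of 1.96 in Bcor-/- MEP (SE 0.25, adjusted p = 0.0556), the ninth highest of 16492 genes, and Prdm16 had 1.13 (SE 0.24, adjusted p = 0.302). Nkx2-3 was called after quantile normalization and with 1 variance weight per genotype, and Prdm16 with 1 variance weight per genotype and when either double knockout library was left out (adjusted p = 0.0108 and 0.0096). Under the alternative settings, leaving out a library aside, the log2 fold changes ranged from 1.959 to 4.3 for Nkx2-3 and 1.127 to 2.193 for Prdm16. In all, 0 of the 3 filtered genes were called in Bcor-/- against WT MEP, beside 0.0640% of all tested genes. Without a filter it was 0 of 6, beside 0.0485%. At an unadjusted p under 0.05 limma's test passed 0 of the 3 filtered genes, and 2 of 6 without a filter, Nkx2-3 and Prdm16.

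Hlf and Meis1 varied widely among WT MEP. Hlf had 1.69, 0.495 and 3.89 FPKM for WT, 3.18, 0.412 and 0.816 for Dnmt3a-/-, 2.83 and 2.49 for Bcor-/- and 0.586 and 1.53 for the double knockout. Meis1 had 9.61, 2.84 and 13.2 FPKM for WT, 12.8, 4.04 and 5.77 for Dnmt3a-/-, 10.6 and 13.3 for Bcor-/- and 1.58 and 4.06 for the double knockout. WT replicate 3 and Dnmt3a-/- replicate 1 were high for both genes, and the same libraries were high for Cd34 (60.6 and 44.1 FPKM). The Bcor-/- libraries, the highest for Nkx2-3 and Prdm16, had 56.9 and 30.0 FPKM of Cd34. Their stem cell surface genes, mostly Cd34 and Flt3 by level, summed to 93.8 and 60.2 FPKM, within the 17.4 to 104 of WT. Of these genes 0 of 5 tested were called, beside 0.0640% of all tested genes. Procr and Fgd5 of this list were too low to be tested. Procr had 0.864 and 1.44 FPKM in Bcor-/- MEP against 0 to 0.661 in WT, and Fgd5 0.188 and 0.369 against 0 to 0.188. The means of Slamf1 (2.33 against 2.72) and Tek (0.966 against 1.84) were below WT. WT replicate 2, low for Hlf and Meis1, had 5.43 FPKM of Cd34. Cd34 is excluded by the MEP gate at the protein level, and the part of CD34+ cells in these values was not tested.

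Mecom had 0.290, 0.168 and 0.928 FPKM for WT, 0.758, 0.284 and 0.0877 for Dnmt3a-/-, 0.540 and 0.481 for Bcor-/- and 0.0840 and 0.176 for the double knockout, so the double knockout and WT overlapped. Msi2 was even across 3 genotypes, with 17.1, 16.2 and 20.0 FPKM for WT, 17.1, 16.1 and 15.0 for Dnmt3a-/- and 18.9 for both Bcor-/- libraries. The Bcor-/-Dnmt3a-/- MEP libraries lay on both sides of these, at 32.4 and 12.9 FPKM.

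**Figure D5:**
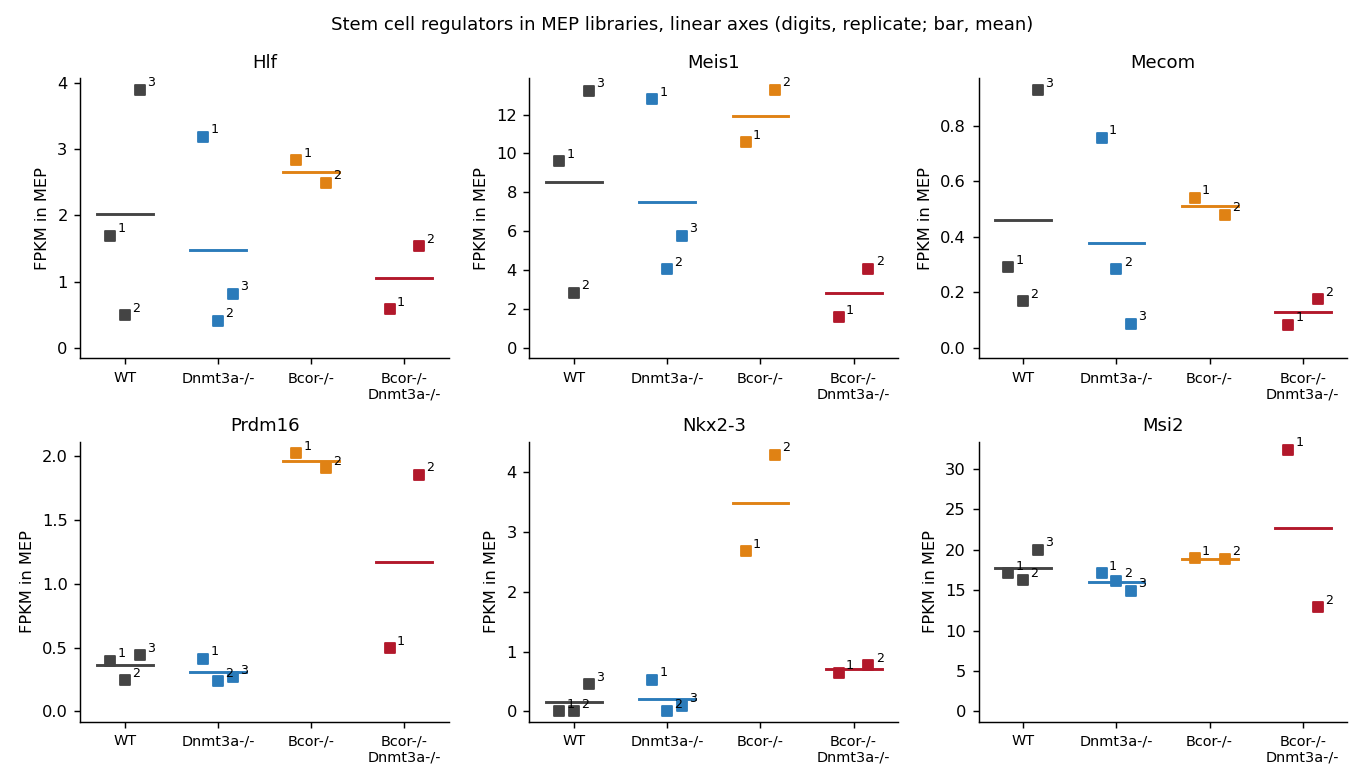
FPKM of each gene in every MEP library on linear axes that differ between genes, with digits for the replicate and bars at the means. Nkx2-3 at 2.67 and 4.29 FPKM and Prdm16 at 2.02 and 1.91 FPKM stand above WT in Bcor-/- MEP, while Hlf and Meis1 spread widely within WT.

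The double knockout in MEP gave 0 of 3 calls against WT, beside 25.2% of all tested genes called, and 0 of 6 without a filter, beside 17.2%. Meis1 had a log2 fold change of -1.21 (SE 0.60, adjusted p = 0.153), Hlf -0.43 (SE 0.57, adjusted p = 0.589) and Msi2 0.20 (SE 0.30, adjusted p = 0.628). Without a filter, Mecom had -0.34 (adjusted p = 0.351), Prdm16 0.61 (adjusted p = 0.111) and Nkx2-3 0.59 (adjusted p = 0.133), and of these Prdm16 and Nkx2-3 had an unadjusted p under 0.05 (0.0375 and 0.0489). Single libraries decided some of these values. Meis1 was called without WT replicate 2 (log2 fold change -1.76, adjusted p = 0.0439). Msi2 had 0.84 without double knockout replicate 2 and -0.43 without replicate 1, and Prdm16 had 1.07 without double knockout replicate 1. Each of these Msi2 and Prdm16 values rests on 1 double knockout library, and its test on the spread of the other genotypes. No p-value is therefore given for them, and more of all genes that passed the filter were called in both fits.

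Against Dnmt3a-/- MEP the double knockout gave 0 of 3 calls, beside 30.0% of all tested genes, and 0 of 6 without a filter, beside 20.7%, with 1 of 6 at an unadjusted p under 0.05, Prdm16. Against Bcor-/- MEP it gave 0 of 3 calls, beside 20.3%, and 1 of 6 without a filter, beside 13.8%. That gene was Nkx2-3, lower in the double knockout by a log2 fold change of -1.37 (SE 0.28, adjusted p = 0.015), a call that was lost without Bcor-/- replicate 2 (adjusted p = 0.106) when only these 2 genotypes were fitted (0.178), with a pseudocount of 0.1 FPKM (0.205) and with 1 variance weight per genotype (0.539). Meis1 had -1.83 (SE 0.66, unadjusted p = 0.0228, adjusted p = 0.0752 in limma's test) and was called without WT replicate 2 (adjusted p = 0.0374) or without double knockout replicate 2 (0.0417). Dnmt3a-/- against WT MEP gave 0 of 3 calls and 0 of 6 without a filter, beside 0% of all genes in both fits, with 0 of the 6 genes at an unadjusted p under 0.05 in limma's test.

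In the MEP libraries the marker sums also moved in the double knockout. The erythroid genes summed to 6957 and 103800 FPKM in Bcor-/-Dnmt3a-/- MEP against 5387 to 7769 in WT, with 4 of 16 called higher and 1 lower. The granulocyte-monocyte genes summed to 6059 to 12830 FPKM against 273 to 721, with 5 of 9 called higher. The B-lymphoid genes summed to 2795 FPKM in replicate 1, the library with the higher Msi2, and 122 in replicate 2. Macrophage genes gave 721.7 and 26.49 FPKM against 6.084 to 10.12 in WT, with 2 of 6 called higher. T and NK genes gave 79.31 and 188 against 32.77 to 67.23, with 2 of 3 called higher. Megakaryocyte genes gave 17.8 and 71.15 against 86.43 to 334.5, with 1 of 6 called lower. Stem cell surface genes gave 54.18 and 30.66, within the 17.41 to 103.9 of WT, with 2 of 5 called lower. The part of these cells in the values of the 6 genes was not tested. Among the related lists, the circuit had 4 genes called higher in Bcor-/-Dnmt3a-/- MEP, Gfi1 (log2 fold change 2.37), Lyl1 (1.29), Fli1 (1.27) and Kmt2a (0.73), and 1 lower, Ldb1 (-0.82), of 21 tested, a share near the 25.2% of all genes called in this comparison. Of the 10 TALE and Hox partners tested in MEP, 1 was called, Pbx4, which fell by 0.83.

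The last comparison asked whether the mutant effect differed between the cell types, and it used, for each mouse, the log2 value of LSK minus that of MEP. The effect of the double knockout was more negative in LSK than in MEP for 3 of 3 filtered genes, beside 18.6% of all genes called and 10.6% called with a more negative value in LSK. The difference of the effects was -3.86 for Hlf (SE 0.93, adjusted p = 0.023), -2.67 for Meis1 (SE 0.60, adjusted p = 0.0184) and -1.12 for Msi2 (SE 0.25, adjusted p = 0.0184). Without a filter 6 of 6 genes were called, beside 14.1%, with -3.21 for Nkx2-3 (SE 0.47), -2.77 for Mecom (SE 0.27) and -2.13 for Prdm16 (SE 0.19). The scale limits this comparison. The WT means of log2(FPKM + 1) in MEP were 1.43 for Hlf, 3.06 for Meis1, 0.51 for Mecom, 0.44 for Prdm16 and 0.18 for Nkx2-3, each less than the fall of that gene in LSK, so a fall as large was not possible in MEP. For Msi2 the WT mean was 4.22, above its fall in LSK. With 1 variance weight per genotype 0 of the 3 were called, and 0 of all 10773 tested genes. The 3 genes fitted without a filter lost their calls with these weights too. The count was also 0 of 3 without WT replicate 1 or WT replicate 2 (adjusted p from 0.0531 to 0.07), when 613 and 641 of all genes were called in place of 2001. Hlf alone lost its call with a pseudocount of 0.1 FPKM (adjusted p = 0.061) and without Bcor-/- replicate 1 (0.0505) or 2 (0.0573).

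For Bcor loss alone, 0 of 3 filtered genes were called, beside 0.251% of all genes, while 2 had an unadjusted p under 0.05. Without a filter 1 of 6 was called, beside 0.467%. That gene was Prdm16, with a difference of -1.41 (SE 0.19, adjusted p = 0.0409), lower than WT in LSK and higher in MEP. This call was lost when any 1 WT, Dnmt3a-/- or Bcor-/- mouse was left out (adjusted p from 0.0795 to 0.317), with a pseudocount of 0.1 FPKM and after quantile normalization. Nkx2-3 had a larger difference, -2.52 (SE 0.47), and missed the threshold (adjusted p = 0.0609).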

How the data were processed

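Total RNA of sorted LSK and MEP cells was sequenced after polyA selection, with 10 libraries of each cell type. Per cell type the authors deposited 1 FPKM table, made per the submitters' processing notes with STAR 2.5.1b, SAMtools 1.9 and Cufflinks 2.2.1 on mm9. The annotation and the scaling between libraries are not given in the sources used here. Read counts are not in these tables, so the depth per library is unknown and no counting interval was computed. Groups, mice and replicate numbers were taken from the labels. Replicates carry the names of different mice, and 1 Bcor-/- library of each cell type names 2, without a statement that they were pooled. For the double knockout fewer mice are named here than the study gives per genotype, and any further library was not analysed here.

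From the deposited FPKM, log2(FPKM + 1) was fitted in R 4.3.3 with limma 3.58.1 (mean-variance trend, 1 mean per genotype, all 10 libraries of a cell type) over genes whose mean reached 1 FPKM (11952 in LSK, 10933 in MEP). A call needed a Benjamini-Hochberg adjusted p over all tested genes under 0.05 and a fold change above 1.5 in either direction, and tests were two-sided. Cell types were compared on the difference of LSK and MEP within each mouse. Single values were also tested by exact permutation. The procedure was tested on simulated data that gave every genotype the same spread, so that test does not cover the wider spread of the double knockout libraries. The 6 genes are named throughout, with up to 4 called genes per related list, the 3 genes most correlated with each and the marker genes beside the results, and some genes that this rule names are not reported here. The members and the lists were chosen with earlier results of these data known. Python 3.11.15 and its library matplotlib 3.10.9 made the figures. Alternatives were a pseudocount of 0.1 FPKM, a stricter minimum of 5 FPKM and none, quantile normalization, median centring, only the compared genotypes, variance weights, no trend, the unadjusted p, a replicate block and leaving out each library. Combining no filter with the other alternatives for the 3 genes under 1 FPKM in MEP was added after seeing the data. Promoter windows come from RefSeq GRCm38.p6, and no coordinate was converted between builds.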

Additional observations from a re-analysis of the deposited data

Results flagged for a closer look

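The effect of the double knockout passed the test of a difference between LSK and MEP for each of the 6 genes, on per-mouse differences. For all but Msi2 the level in WT MEP was too low for a fall as large as that in LSK. The difference, LSK minus MEP in log2 units, was -3.856 for Hlf (adjusted p = 0.023), -2.674 for Meis1 (0.0184) and -1.124 for Msi2 (0.0184) for the genes that passed the filter on low values, and -2.769 for Mecom (0.00423), -2.128 for Prdm16 (0.00335) and -3.208 for Nkx2-3 (0.00748) without a filter, all from limma with Benjamini-Hochberg adjustment. With 1 variance weight per genotype 0 of these 6 calls remained, and without WT replicate 1 or 2 the filtered genes gave 0 of 3. The effect of Bcor loss alone differed for Prdm16, by -1.405 (0.0409), a call that was lost without any 1 WT, Dnmt3a-/- or Bcor-/- mouse, with a pseudocount of 0.1 FPKM and after quantile normalization (adjusted p up to 0.317). The change of Prdm16 passed the test neither in Bcor-/- LSK (adjusted p = 0.501) nor in MEP (0.302).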

How the results depend on the processing

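Of 1290 values of single genes under the alternatives, 1173 kept their direction and side of the threshold, 55 lost a call, 35 gained one and 27 turned direction, and the causes were not tested. The numbers of the 6 genes called changed as follows. In LSK the double knockout gave 6 against WT and 6 against Dnmt3a-/-, which became 4 and 5 with variance weights and 5 in both with a mean of at least 5 FPKM, which 1 member does not reach. In Bcor-/- against WT LSK it was 2 and became 3 at the unadjusted p, 1 with a pseudocount of 0.1 FPKM, 1 with no filter, 1 without the trend, 1 with the replicate block, 4 with only the compared genotypes, 4 with variance weights by genotype, and 0 to 4 over the libraries left out. In the double knockout against Bcor-/- LSK it was 5 and became 0 with only the compared genotypes, 3 with variance weights, 4 with a mean of at least 5 FPKM and 4 to 5 over the libraries left out. For the double knockout in MEP it was 0 and ranged over the libraries left out from 0 to 1 against WT, 0 to 2 against Bcor-/- and 0 to 1 against Dnmt3a-/-. Against Bcor-/- MEP it was also 1 at the unadjusted p, 1 with no filter and 1 after quantile normalization. The difference of the double knockout effect between cell types was called for 3 genes, for 6 with no filter, for 2 with a pseudocount of 0.1 FPKM or a mean of at least 5 FPKM, for 0 with variance weights and for 0 to 3 over the libraries left out. For Bcor loss it was called for 0 genes, for 2 at the unadjusted p, 1 with no filter, 1 with variance weights, and 0 to 1 over the libraries left out.

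Values that turned direction were small and uncalled unless stated. With the replicate block Hlf in the double knockout against Dnmt3a-/- MEP was 0.005623 in log2 fold change. Over the libraries left out, Dnmt3a-/- against WT LSK ranged from -0.08765 to 0.174 for Mecom, -0.1009 to 0.1427 for Prdm16, -0.3088 to 0.09429 for Nkx2-3 and -0.04415 to 0.1051 for Msi2. In MEP it ranged from -0.7524 to 0.138 for Hlf, -0.2721 to 0.1359 for Mecom, -0.6585 to 0.2845 for Meis1 and -0.1135 to 0.2472 for Nkx2-3. Msi2 in the double knockout ranged from -0.4411 to 0.135 against Bcor-/- LSK, and in MEP from -0.4277 to 0.8376 against WT, -0.5195 to 0.7458 against Bcor-/- and -0.2939 to 0.9714 against Dnmt3a-/-, the upper value in MEP being a call each time. Hlf in the double knockout against Dnmt3a-/- MEP ranged from -0.4758 to 0.323, and Mecom in Bcor-/- against WT MEP from -0.06269 to 0.2988.

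Deviations of libraries with the same replicate number gave r from -0.0585 to 0.0871 in LSK, which shows no pairing of the genotypes by number. In MEP they gave -0.193 to 0.336, with 0.1215 to 0.2113 for pairs of mutant genotypes. Libraries with different numbers gave -0.4379 to 0.3135 there, so pairing in MEP was neither shown nor excluded. Over all genes, variance weights moved the number called in the double knockout against WT from 2836 to 1018 in LSK and from 2751 to 48 in MEP, only the compared genotypes moved it to 1697 and 894, and in Bcor-/- against WT LSK the number was 690, 3 to 1692 over the libraries left out, 397 with the replicate block, 1393 with only the compared genotypes, 1624 with variance weights and 1581 at the unadjusted p. Bcor-/- against WT MEP gave 7, 0 to 101 over the libraries left out, 0 with the replicate block, 2 with only the compared genotypes, 13 after quantile normalization, 189 with variance weights and 302 at the unadjusted p. Quantile normalization shifted the double knockout of MEP in its median log2 fold change from 0.02 to -0.17 and the genes called from 1546 higher and 1205 lower to 1159 higher and 2086 lower. Fold changes of low genes moved too. Leaving out libraries aside, Mecom in double knockout LSK ranged from -4.426 to -3.05 against Dnmt3a-/- and -3.037 to -1.878 against Bcor-/-. Prdm16 ranged there from -2.457 to -1.457 and from -2.047 to -1.227. Nkx2-3 in double knockout MEP ranged from 0.3058 to 2.186 against WT and -2.114 to -1.368 against Bcor-/-. With 2 mutant libraries and no read counts, low values cannot be given an error of counting.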
